A study of Mus musculus with 12 samples.

Results

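The genes described here are 40 genes of the ectoderm and periderm, the epithelium that covers the facial processes of the embryo. They form a list of epithelial genes given by name, with no threshold on a measured value, and all 40 were found among the 53392 gene identifiers of the deposited tables. Earlier results of these data were known when the list was chosen. The list holds 3 cell-cell adhesion genes, 5 simple and periderm keratins, 3 basal keratins, 7 transcription factors, 2 splicing factors, 4 claudins, 6 desmosome genes, 4 genes of the basement membrane and hemidesmosome, 2 signals and 4 genes of proteases, trafficking and the cell cycle. Their RNA was measured in 12 mouse libraries whose tissue is labelled as mesenchyme, that is, after the covering ectoderm had been digested away.

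All embryos were on the 129S4 background, and each group had 3 biological replicates. Palatal shelves at E13.5 came from Pdgfra+/+ embryos, called wild-type here, and from PdgfraPI3K/PI3K embryos, called PI3K, which are homozygous for an altered allele of the receptor PDGFRα that does not bind PI3K. Maxillary processes at E11.5 came from Srsf3fl/fl;Wnt1-Cre+/+ embryos, the controls, which carry the floxed allele without the Cre transgene, and from Srsf3fl/fl;Wnt1-Cre+/Tg embryos, labelled Srsf3 cKO and called cKO-labelled here. Wnt1-Cre is active in neural crest, from which facial mesenchyme derives, and not in the surface ectoderm. All tissues were treated with 20 mg/mL trypsin for 15 to 20 min at 4°C to remove the ectoderm, and RNA was isolated from all samples at the same time. The labels do not say how many embryos were joined in a sample.

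The early facial ectoderm is a layer of basal cells under a flat outer layer, the periderm. Basal cells are known for keratins 5, 14 and 15 under control of the transcription factor p63, and periderm and other simple epithelia for keratins 8, 18 and 19. Epithelial cells are held together by E-cadherin and P-cadherin, desmosomes and claudins, and rest on a laminin-rich basement membrane, whereas mesenchymal cells express transcription factors of the Snail and Zeb families, which bind the E-box CACCTG and repress epithelial genes. In the palate, the epithelium at the medial edges of the shelves is lost when the shelves meet and fuse.

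Promoter sequence was examined for motifs known from epithelial genes. The window from 250 bases before to 50 bases after the start of transcription was given for 18 of the 40 genes (RefSeq, build GRCm38.p6), so the shares that follow are of these 18 and not of the whole list. The hexamer CACCTG, read on both strands, was present in the windows of 15 of these 18 genes (83.3%) and in those of 22.6% of all 27025 genes with such a window. The octamer AACCNGTT, likewise read on both strands and the consensus of grainyhead factors such as Grhl2 and Grhl3, was found in 2 of the 18, Rab25 and Sfn (11.1%), against 2.35% of all genes. These are matches of letters in the sequence, and nothing in the data shows that a factor was bound there. Stretches that lie before the start of transcription are given with the match in capitals, written on the strand of the gene. The first 2 hold the octamer and the others the hexamer, and matches on the opposite strand appear as their reverse complement, which is the case for AACTGGTT in Sfn and CAGGTG in Krt5:
Rab25, chr3:88548348-88548407, minus strand: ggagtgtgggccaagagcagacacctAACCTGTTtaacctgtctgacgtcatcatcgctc
Sfn, chr4:133602319-133602378, minus strand: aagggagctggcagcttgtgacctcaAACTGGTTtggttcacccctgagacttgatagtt
Epcam, chr17:87635766-87635823, plus strand: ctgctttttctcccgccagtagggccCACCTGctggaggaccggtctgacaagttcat
Krt5, chr15:101713002-101713059, minus strand: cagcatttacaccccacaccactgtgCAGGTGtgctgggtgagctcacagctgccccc
Krt18, chr15:102027976-102028033, plus strand: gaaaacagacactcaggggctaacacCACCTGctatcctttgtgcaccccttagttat
Elf3, chr1:135258581-135258638, minus strand: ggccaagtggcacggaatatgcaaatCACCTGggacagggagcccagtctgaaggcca

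Library totals ran from 30.5 to 37.4 M (megacounts) in the palatal shelf and from 15.9 to 27.9 M in the maxillary process. The smallest chi-square per degree of freedom between replicates was 11.01, so that no pair agreed within sampling noise. Mesenchymal genes were abundant in all 12 libraries, as the labels state, with Twist1 at 329 to 788 TPM (a level scaled for transcript length and depth). Srsf3, the gene targeted by the floxed allele, was not reduced: the controls had 597, 578 and 547 CPM (counts scaled by library size) and the cKO-labelled libraries 468, 669 and 622 CPM. The log2 fold change was 0.03 (SE 0.14), and directions between these groups therefore rest on the labels. The palatal shelf libraries were from lane 2 and the maxillary libraries from lane 4 of the sequencing run, so tissue, stage, alleles and lane cannot be told apart between them. Fewer epithelial cells in a sample and less RNA of these genes per cell cannot be told apart in such bulk libraries.

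The palatal shelf libraries held abundant epithelial RNA, and the maxillary process libraries held little. Summed over the 40 genes, the level was 1289, 1431 and 1698 TPM in the 3 wild-type palatal shelf libraries and 1659, 1677 and 739 TPM in the 3 PI3K libraries. Maxillary process sums were 30.4, 12.3 and 12.5 TPM in the controls and 50.3, 28.1 and 50.5 TPM in the cKO-labelled libraries. The lowest palatal shelf library, PI3K library 3, thus lay above every maxillary library. As a share of all estimated counts, the listed genes took 0.131 to 0.267% of a palatal shelf library and 0.00466 to 0.0155% of a maxillary library. At least 39 of the 40 genes were above 1 TPM in each palatal shelf library. In the maxillary process 11, 4 and 3 genes were above that level in the controls, and 17, 8 and 18 in the cKO-labelled libraries.

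**Figure D1:**
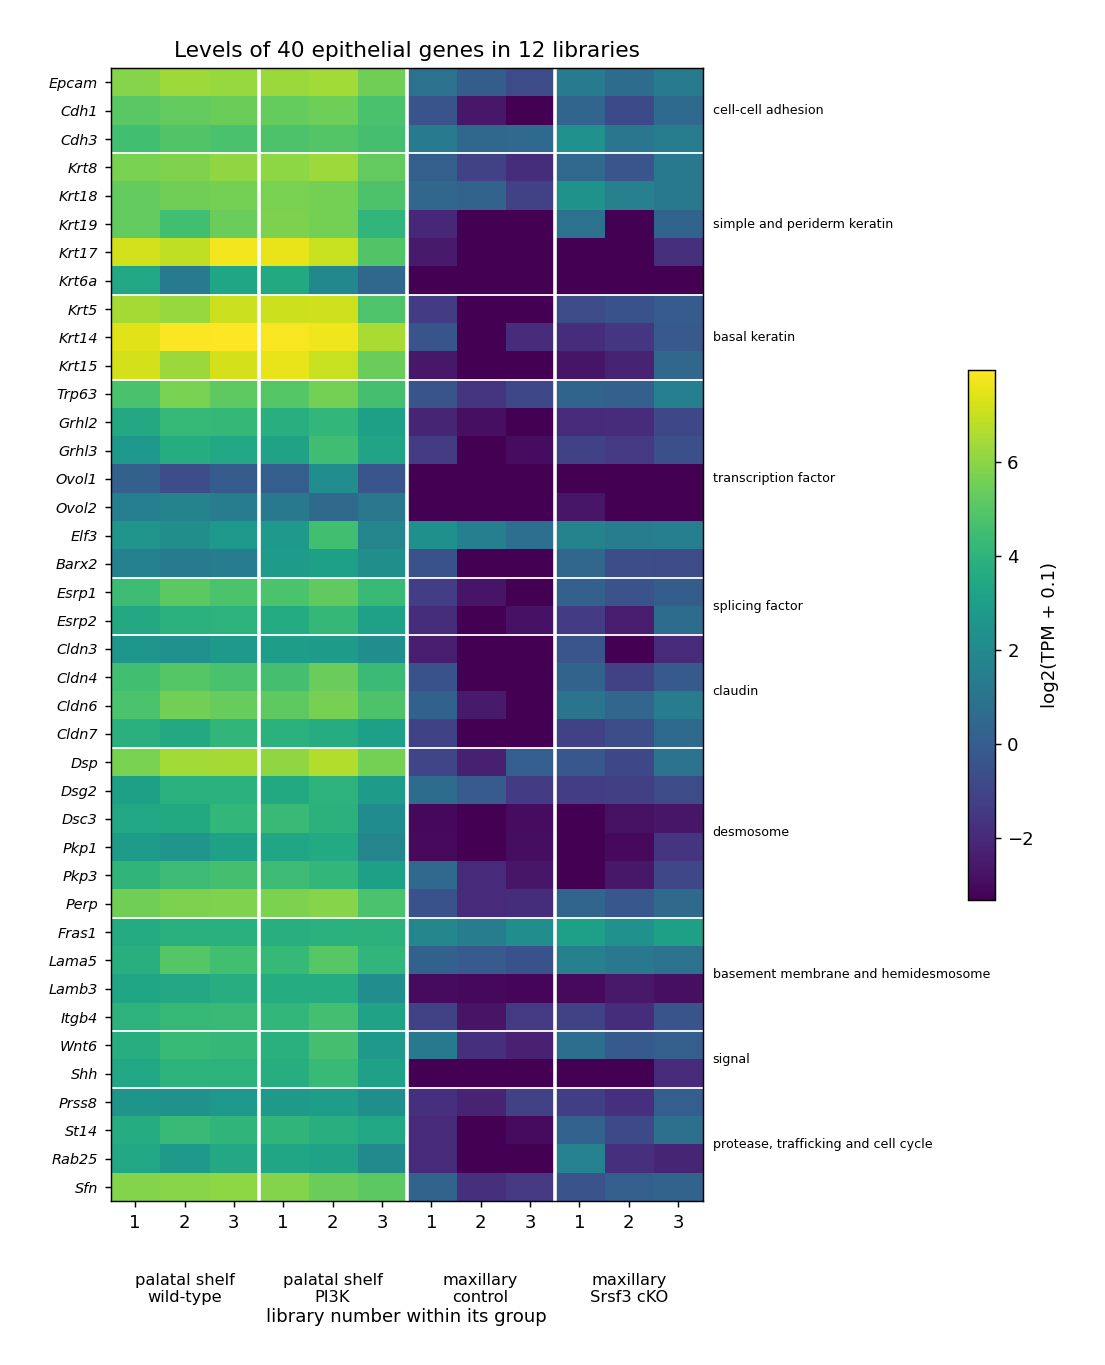
Level of each of the 40 genes (rows, grouped by role) in each of the 12 libraries (columns), as log2(TPM + 0.1). The 6 palatal shelf libraries are bright for nearly all genes, PI3K library 3 is dimmer in the keratin rows, and the maxillary libraries are dark except for rows such as Fras1 and Elf3.

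Krt14, a keratin of the basal layer, had the highest mean of the listed genes in the wild-type palatal shelf. It (ENSMUSG00000045545.8, chromosome 11, 100203162 to 100207548, minus strand, GRCm38) had 178, 242 and 253 TPM in the wild-type and 236, 215 and 93.3 TPM in the PI3K libraries. By its mean in the wild-type libraries it was the gene of rank 621 among all genes, in tissue labelled as mesenchyme. PI3K library 3 was the lowest, and the other 5 libraries lay between 178 and 253 TPM. Krt5, the type II partner of keratin 14, had 87.2, 74.7 and 135 TPM in the wild-type and 140, 142 and 28.9 TPM in the PI3K libraries. Krt15, a further basal keratin, had 150, 77.4 and 152 TPM in the wild-type and 193, 131 and 41.9 TPM in the PI3K libraries. All 3 basal keratins were lowest in the same PI3K library, below the range of the other 5. The maxillary process held almost none of them, with 0 to 0.669 TPM of each in the controls and 0.0541 to 1.24 TPM in the cKO-labelled libraries.

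Keratins of simple epithelium and periderm were also present in every palatal shelf library. Krt17 (ENSMUSG00000035557.9, chromosome 11, 100256217 to 100261029, minus strand, GRCm38), a keratin of periderm and of developing skin appendages, had 149, 119 and 217 TPM in the wild-type and 195, 129 and 30.2 TPM in the PI3K libraries. Krt8 ranged from 38.7 to 79.6 TPM over the 6 libraries, its partner Krt18 from 28.04 to 52.9 TPM and Krt19 from 17.4 to 54.5 TPM, each with its lowest value in PI3K library 3. Krt6a was the least abundant keratin, with 10.6, 2.51 and 10.1 TPM in the wild-type and 11.4, 3.82 and 1.276 TPM in the PI3K libraries. Krt6a was at 0 in all 6 maxillary libraries and Krt17 in 4 of 6. Krt18 was the keratin with the highest group means there, at 1.21, 1.13 and 0.374 TPM in the controls and 5.52, 2.93 and 2.27 TPM in the cKO-labelled libraries. Keratin genes resemble each other in sequence: 51.3% of all stretches of 31 bases in Krt6a transcripts occur in other genes, as do 32.3% in Krt8, 28.2% in Krt14 and 15.8% in Krt17, so the split of reads among them is uncertain.

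The composition of the keratin RNA differed among the palatal shelf libraries. The 8 keratins made up 54.7, 44.8 and 54.6% of the summed level of the 40 genes in the wild-type and 57.3, 47.6 and 37.9% in the PI3K libraries. The summed basal keratins (Krt5, Krt14 and Krt15) had 3.20, 3.14 and 3.39 times the summed level of the simple keratins Krt8, Krt18 and Krt19 in the wild-type libraries, and 3.27, 2.75 and 1.95 times in the PI3K libraries. PI3K library 3 thus had the lowest keratin share and the lowest ratio of basal to simple keratin. The ratio of Krt17 to Krt14 was 0.837, 0.490 and 0.860 in the wild-type and 0.826, 0.602 and 0.324 in the PI3K libraries. Wild-type library 2 and PI3K library 2 were lower in this ratio than the other libraries of their group, apart from PI3K library 3.

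**Figure D2:**
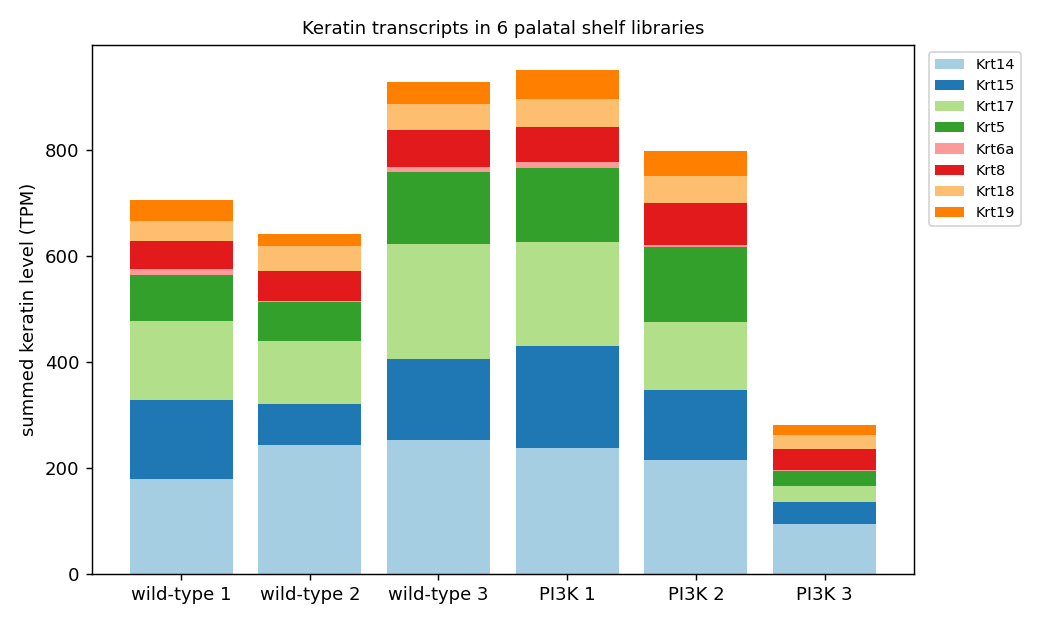
Summed level of 8 keratins (TPM) in each of the 6 palatal shelf libraries, stacked by gene from Krt14 at the base. The total is 280 TPM in PI3K library 3 and 641 to 951 TPM in the other 5.

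The adhesion genes were more even across the palatal shelf than the keratins. Epcam (ENSMUSG00000045394.8, chromosome 17, 87635979 to 87651129, plus strand, GRCm38), which encodes a homophilic adhesion molecule of epithelia, had 60.4, 81.1 and 74.2 TPM in the wild-type and 76.8, 84.0 and 45.6 TPM in the PI3K libraries. Cdh1, the gene of E-cadherin, had 33.8, 38.3 and 43.2 TPM in the wild-type and 39.7, 44.7 and 26.7 TPM in the PI3K libraries. Cdh3, the gene of P-cadherin, had 23.1, 30.0 and 26.5 TPM in the wild-type and 28.5, 31.1 and 25.2 TPM in the PI3K libraries. The Cdh3 values of the groups overlapped and PI3K library 3 was not the lowest. In the maxillary controls Epcam had 1.84, 0.904 and 0.502 TPM and Cdh1 had 0.656, 0.0652 and 0 TPM. Cdh3 was higher there, at 2.37, 1.32 and 1.36 TPM.

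Among the transcription factors, Trp63, which encodes p63, the factor needed for stratified epithelium, led with 26.2, 52.6 and 35.9 TPM in the wild-type and 32.4, 48.8 and 24.8 TPM in the PI3K libraries. The grainyhead-like gene Grhl2, which acts in epithelial junctions and neural tube closure, ranged from 8.46 to 18.99 TPM over the 6 libraries. Its relative Grhl3, known from the formation of periderm and of the skin barrier, had 6.51, 12.8 and 10.9 TPM in the wild-type and 8.91, 22.6 and 9.67 TPM in the PI3K libraries. Elf3, an ETS factor of differentiated epithelium, had 5.77, 4.69 and 6.37 TPM in the wild-type and 6.55, 23.8 and 3.46 TPM in the PI3K libraries. Ovol1, a zinc finger factor of epithelial differentiation, was near 1 TPM in 5 libraries (0.528 to 0.993) and at 4.62 TPM in PI3K library 2. Elf3, Grhl3 and Ovol1 were thus highest in PI3K library 2. Ovol2, a relative of Ovol1, had its lowest value there, 1.42 TPM against 2.21 to 3.21 TPM in the other 5 libraries. PI3K library 2 was the highest of the 6 in 22 of the 40 genes (55%), and in 23.9% of all genes with a mean of at least 1 TPM.

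The splicing factor genes Esrp1 and Esrp2, which direct epithelial splicing of transcripts such as that of Fgfr2, were present at 20.1 to 36.9 and 8.81 to 18.2 TPM in the palatal shelf. In the maxillary process Esrp1 had 0.312, 0.0547 and 0 TPM in the controls and 0.992, 0.645 and 0.907 TPM in the cKO-labelled libraries. Esrp2 had 0.178, 0 and 0.0475 TPM in the controls and 0.304, 0.0854 and 1.49 TPM in the latter. Together the 2 genes summed to 41.7 ± 8.59 TPM (SD, n = 3) in the wild-type palatal shelf and to 0.198 ± 0.254 TPM (SD, n = 3) in the maxillary controls.

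The desmosome genes of the palatal shelf were likewise lowest in PI3K library 3. Dsp, which encodes desmoplakin, the link from desmosomes to keratin filaments, had 52.6, 84.7 and 86.7 TPM in the wild-type and 68.0, 101 and 48.7 TPM in the PI3K libraries. Perp, a p63 target that encodes a desmosome membrane protein, ranged from 27.6 to 59.9 TPM, and the plakophilin gene Pkp3 from 8.48 to 25.2 TPM. Desmosomal cadherin Dsc3 had 10.8, 11.47 and 17.98 TPM in the wild-type and 20.0, 15.1 and 4.36 TPM in the PI3K libraries, while Dsg2 ranged from 7.28 to 15.8 TPM and Pkp1 from 3.39 to 11.8 TPM. This held for all 6 desmosome genes. The tight junction genes were led by Cldn6 (27.1 to 50.7 TPM) and Cldn4 (20.7 to 42.2 TPM), above Cldn7 (8.35 to 17.1 TPM) and Cldn3 (4.59 to 7.96 TPM).

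At the basement membrane, Lama5, which encodes a laminin chain that mesenchyme and vessels also make, had 13.4, 31.9 and 23.3 TPM in the wild-type and 19.1, 32.6 and 17.3 TPM in the PI3K libraries. Fras1, which encodes a matrix protein at the border of epithelium and mesenchyme, was the steadiest gene, with 12.4, 14.2 and 14.5 TPM in the wild-type and 13.54, 14.9 and 15.5 TPM in the PI3K libraries. Lamb3, a chain of laminin 332, had 10.2, 11.2 and 13.3 TPM in the wild-type and 12.5, 12.8 and 4.50 TPM in the PI3K libraries. Fras1 was highest and Lamb3 lowest in PI3K library 3. Itgb4, the hemidesmosome integrin, ranged from 9.06 to 24.0 TPM. Lamb3 overlaps the protein-coding genes Hsd11b1 and G0s2 on the opposite strand, as Esrp2 overlaps Nfatc3 and Prss8 overlaps Kat8, and it is not given in the sources used here whether the counting used strand.

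Of the signals, Shh, the Hedgehog ligand of the oral and palatal epithelium, had 10.6, 15.5 and 16.0 TPM in the wild-type and 13.0, 19.3 and 8.65 TPM in the PI3K libraries. Wnt6 had 13.2, 19.5 and 18.4 TPM in the wild-type and 14.4, 25.0 and 6.79 TPM in the PI3K libraries. Both signals were highest in PI3K library 2 and lowest in PI3K library 3. In the maxillary process Shh was at 0 in 5 of 6 libraries, while Wnt6 had 2.29, 0.198 and 0.108 TPM in the controls. The last genes were Sfn, which encodes the cell cycle inhibitor 14-3-3σ of stratifying epithelium (35.3 to 67.2 TPM in the palatal shelf), the membrane protease genes St14 (10.6 to 19.3 TPM) and Prss8 (4.81 to 7.85 TPM), and the recycling GTPase gene Rab25 (4.14 to 11.3 TPM).

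PI3K library 3 stood apart from the other palatal shelf libraries in these genes. It had the lowest level of the 6 in 32 of the 40 genes (80%), while it was lowest in 12.3% of the 14709 genes with a mean of at least 1 TPM. Relative to the median of the other 5 libraries, its median level was 0.578 over the 40 genes, from 0.126 for Krt6a to 1.62 for Barx2, against 1.03 over all those genes. By role the median ratio was 0.279 for the basal keratins, 0.418 for the simple and periderm keratins, 0.445 for the desmosome genes and 0.463 for the signals. It was 0.611 for the basement membrane genes, 0.619 for proteases, trafficking and the cell cycle, 0.660 for splicing factors, 0.673 for adhesion genes, 0.692 for claudins and 0.745 for transcription factors. These medians describe a single library, and differences between roles were not tested. In the same library 41 other epithelial genes had a median ratio of 0.584 and were lowest in 32 cases. The median was 0.927 for 17 mesenchymal and 1.07 for 9 endothelial genes. The 8 genes of the list not at their lowest in PI3K library 3 were Barx2, Fras1, Cdh3, Grhl3, Ovol1, Ovol2, Lama5 and Cldn6.

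**Figure D3:**
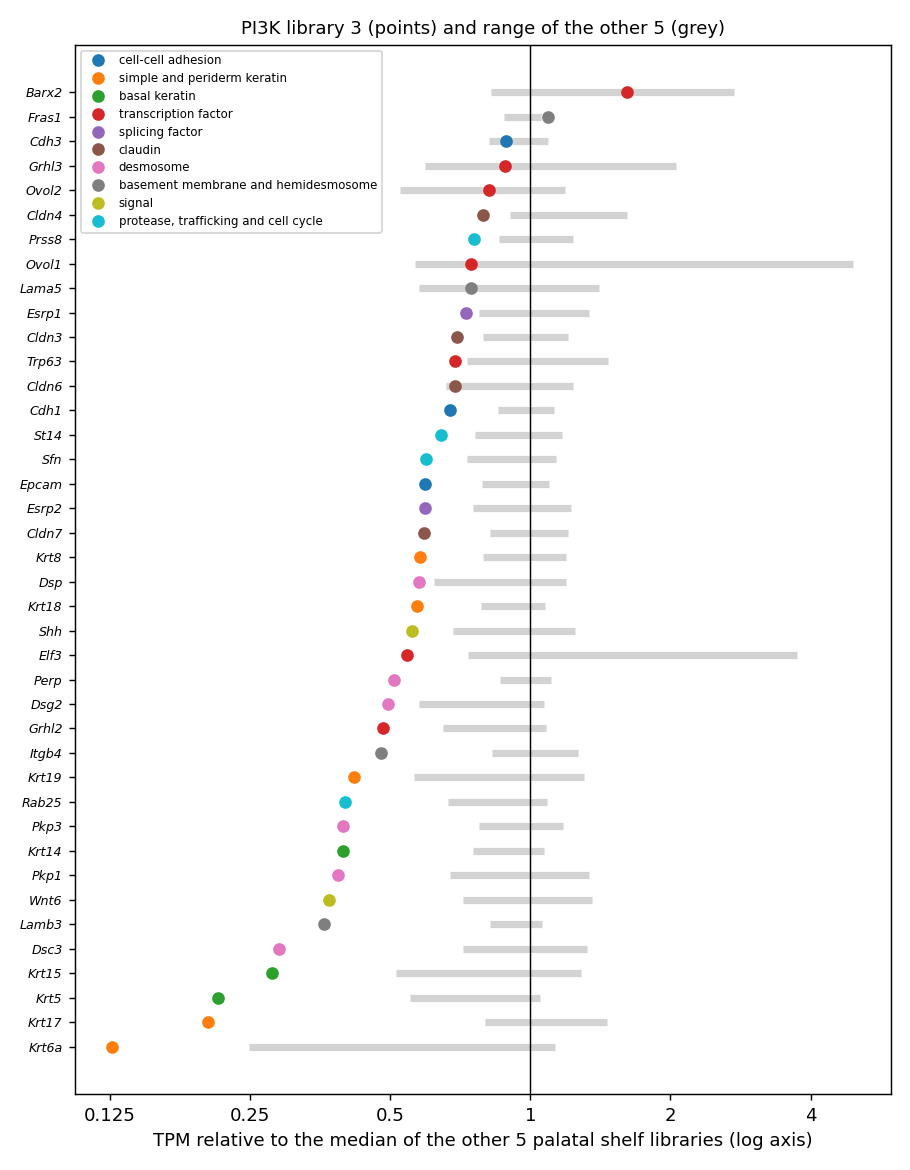
Level of each of the 40 genes in PI3K library 3 (points, coloured by role) and range of the other 5 palatal shelf libraries (grey bars), relative to the median of those 5, on a log axis. The points lie below the grey bar for 32 genes, and the keratins Krt6a, Krt17, Krt5 and Krt15 lie lowest, between 0.126 and 0.279.

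The PI3K and wild-type palatal shelves were then compared gene by gene. None of the 40 genes passed a false discovery rate (FDR) of 0.05: 0 were called, and 0 of all 16525 genes tested (0%), by the edgeR quasi-likelihood test with Benjamini-Hochberg adjustment. At an unadjusted p under 0.05 there were 2 of the 40 genes and 354 of all genes (2.14%). DESeq2 called 5 genes (0.0303%), of which 1 was among the 40. The median log2 fold change was -0.03 over the 40 genes and -0.01 over all genes, and 15 of the 40 were higher in PI3K libraries, against 48% of all genes. The summed level of the 40 genes was 0.922 ± 0.387 times that of the wild-type (SD propagated from n = 3 each), a difference within the spread between replicates.

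These counts turned with single libraries. Without PI3K library 3, 36 of the 40 genes were higher in PI3K libraries, with a median log2 fold change of 0.20, and without PI3K library 2 only 7 were higher, with a median of -0.27. The number of genes with every PI3K library above every wild-type library was 1 with all libraries and 9 without PI3K library 3, where 6.73% of all genes with a count did so. In both fits 0 of the 40 genes were called by edgeR.

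The groups did not overlap in 3 of the 40 genes, against 6.23% of all genes tested. Barx2 (ENSMUSG00000032033.11, chromosome 9, 31846044 to 31913462, minus strand, GRCm38), a homeobox gene of oral ectoderm that is also expressed in myogenic cells, had 3.02, 2.49 and 2.62 TPM in the wild-type and 7.26, 8.29 and 4.88 TPM in the PI3K libraries. Every PI3K library was above every wild-type library, PI3K library 3 included. The normalised count of Barx2 averaged 2.84 ± 0.320 CPM (SD, n = 3) in wild-type shelves and 7.17 ± 1.98 CPM (SD, n = 3) in PI3K shelves. The log2 fold change was 1.33 (SE 0.26, 95% interval 0.73 to 1.94), with an adjusted p of 0.9997 by edgeR and of 0.03143 by DESeq2, so that the call depends on the tool. Skeletal muscle markers also had a higher mean in PI3K libraries: the summed level of 7 such genes was 55.5, 1.51 and 2.05 TPM in the wild-type and 235, 31.3 and 127 TPM in the PI3K libraries. The muscle sums of the groups overlapped. All 7 muscle genes had a log2 fold change above 0, against 48% of all genes tested, and 0 of them were called by edgeR. The part of muscle in the Barx2 difference was not tested.

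The other 2 were lower in all PI3K libraries. Sfn had 59.3, 63.5 and 67.2 TPM in the wild-type and 58.1, 43.3 and 35.3 TPM in the PI3K libraries. Wild-type library 1 and PI3K library 1 lay close together. In CPM, Sfn averaged 53.1 ± 2.47 and 38.4 ± 10.1 (SD, n = 3 each), which gives a log2 fold change of -0.47 (SE 0.18) with an adjusted p of 0.9997 by edgeR. Ovol2 had 2.85, 3.21 and 2.71 TPM in the wild-type and 2.30, 1.42 and 2.21 TPM in the PI3K libraries. Its log2 fold change was -0.57 (SE 0.27), and its adjusted p was likewise 0.9997 by edgeR.

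**Figure D4:**
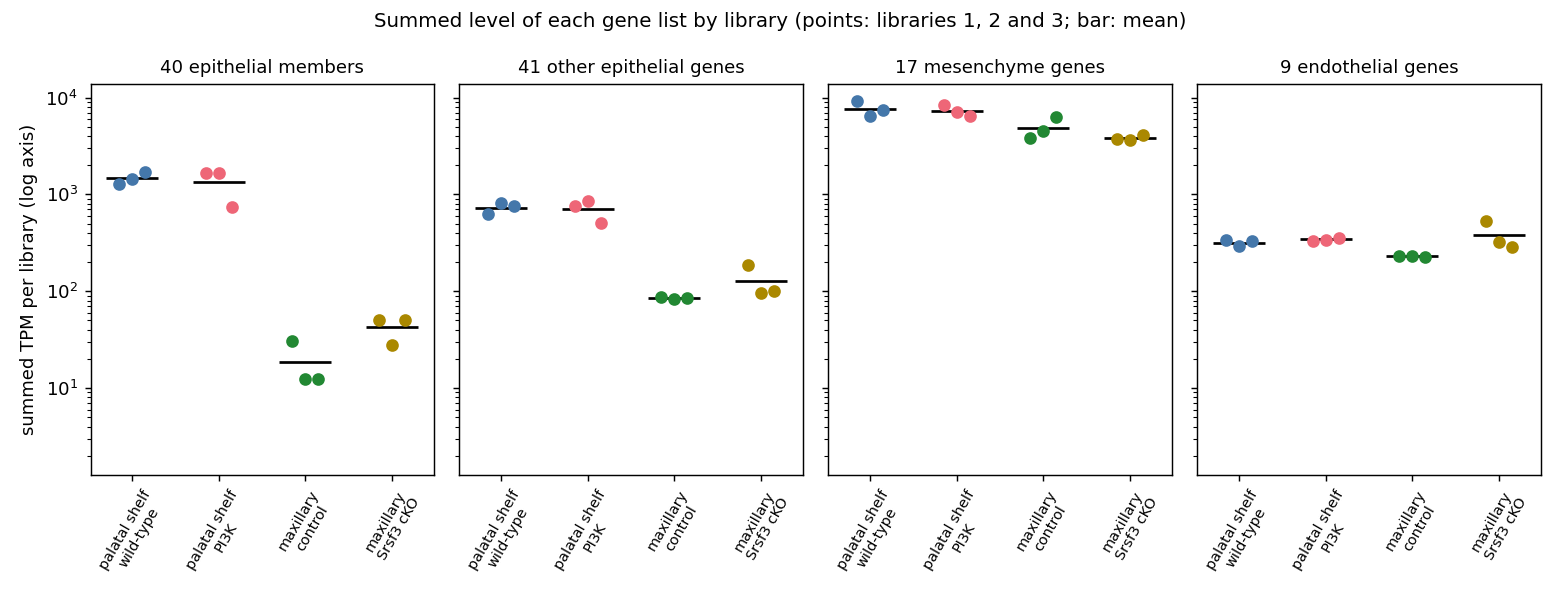
Summed level (TPM, log axis) of the 40 epithelial genes and of lists of 41 other epithelial, 17 mesenchymal and 9 endothelial genes in each library (points), with the mean of each group (bars). The epithelial sums lie at 739 to 1698 TPM in the palatal shelf and at 12.3 to 50.5 TPM in the maxillary process, while the mesenchymal sums of the tissues lie within the range from 3688 to 9138 TPM.

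In the comparison of maxillary processes with and without Wnt1-Cre, both on the floxed Srsf3 background, most of the listed genes had a higher mean in the cKO-labelled libraries, at very low levels, and none passed the threshold by edgeR, while DESeq2 called 4. In the controls 19 of the 40 genes had fewer than 10 counts over the group, and 4 had none (Krt6a, Ovol1, Ovol2 and Shh), where 3 counts over the group would be 0.0547 CPM. Of the 38 genes with any count in these 6 libraries, 35 had a higher mean CPM in the cKO-labelled libraries, against 50.7% of all 23499 genes with a count. In 11 of the 38 every cKO-labelled library was above every control, as in 6.31% of all those genes, and in 0 was the reverse the case (7.31% of all). Leaving out single libraries moved the first count over a range from 30 to 37 genes. The second count was 25 without control library 1 and 20 without cKO-labelled library 2, where the share over all genes was 11.3% in both cases. It was 11 or 12 in the other 4 cases, with 8.77 to 11.68% of all genes.

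By the edgeR quasi-likelihood test with Benjamini-Hochberg adjustment, 12 of 14254 genes were called (0.0842%), and 0 of the 40. With the replicate number as a block 40 genes were called in all, and again 0 of the listed genes. Only 21 of the 40 genes passed the filter on low counts, and 20 of the 40 would pass it in the cKO-labelled libraries alone but 6 in the controls alone, so their shares are not read against other genes. At an unadjusted p under 0.05 there were 11 of the 21 listed genes tested. Over all genes there were 1746 (12.2%), a share that cannot be compared because of that filter. DESeq2 called 356 genes (2.5%), of which 4 were in the list: Fras1, Dsp, Lama5 and Krt18.

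Of the listed genes Fras1 (ENSMUSG00000034687.8, chromosome 5, 96373955 to 96784728, plus strand, GRCm38) had the highest level in the maxillary process, and it rests on the most counts. It had 35.6, 25.6 and 42.02 CPM in the controls and 81.9, 52.6 and 57.3 CPM in the cKO-labelled libraries. The groups did not overlap. The means were 34.4 ± 8.27 and 63.9 ± 15.8 CPM (SD, n = 3 each), and the log2 fold change was 0.89 (SE 0.23), with an adjusted p of 0.2596 by edgeR and 0.009787 by DESeq2. Lama5 had 7.24, 5.91 and 4.10 CPM in the controls and 21.0, 8.36 and 12.9 CPM in the cKO-labelled libraries. Its log2 fold change was 1.29 (SE 0.37), with an adjusted p of 0.2856 by edgeR and 0.02531 by DESeq2. These basement membrane genes kept a level of some CPM in every control library.

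Dsp and Krt18 lay lower. Dsp had 2.12, 0.463 and 0.766 CPM in the controls and 4.49, 2.63 and 10.7 CPM in the cKO-labelled libraries, a log2 fold change of 2.42 (SE 0.70) with an adjusted p of 0.2910 by edgeR and 0.01492 by DESeq2. Krt18 had 0.936, 0.869 and 0.270 CPM in the controls and 4.34, 2.30 and 1.75 CPM in the latter, a log2 fold change of 2.03 (SE 0.56) with an adjusted p of 0.2795 by edgeR and 0.04391 by DESeq2. In TPM the Dsp groups overlapped, at 0.407, 0.0971 and 0.937 TPM for controls against 0.745, 0.446 and 1.86 TPM for cKO-labelled libraries. The log2 fold change of Dsp was 1.04 by limma on log2(TPM + 0.1) and 0.42 on log2(TPM + 1), so its separation rests on the CPM scale. The highest cKO-labelled library was library 3 for Dsp and library 1 for Krt18. Trp63 had 1.93, 0.753 and 0.901 CPM in the controls and 2.63, 1.97 and 6.24 CPM in the cKO-labelled libraries, where the lowest of the latter was just above the highest control. Its log2 fold change was 1.60 (SE 0.56), with an adjusted p of 0.3575 by edgeR. The remaining genes without overlap were Esrp1 (log2 fold change 2.80), Cldn6 (2.80), Krt5 (2.85), St14 (3.42) and Perp (1.85), with means of 0.119 to 0.347 CPM in the controls and adjusted p of 0.2795 to 0.3654 by edgeR, and Grhl2, which did not pass the filter. These fitted values depend on control library 1: without it they were 5.70 for Esrp1, 5.70 for Cldn6 and 5.34 for St14, and all 6 counts of Krt5 in the controls came from that library. Grhl2 had 0.376, 0.116 and 0 CPM in the controls and 0.460, 0.512 and 1.31 CPM in the cKO-labelled libraries.

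**Figure D5:**
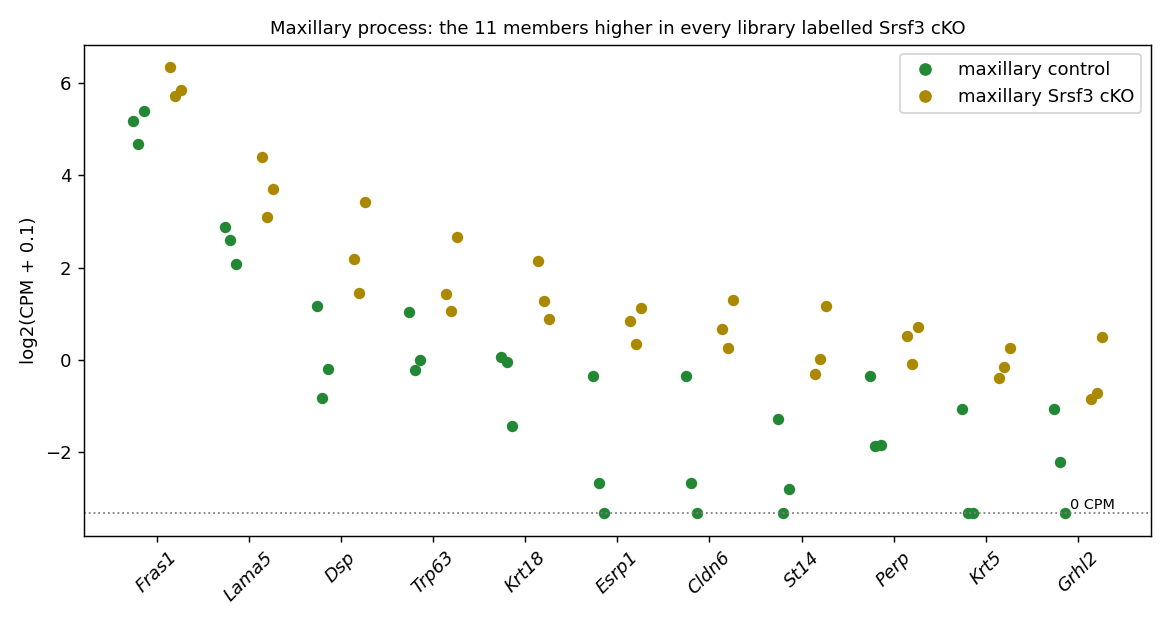
Normalised counts of the 11 listed genes in which every cKO-labelled library (ochre) was above every maxillary control (green), as log2(CPM + 0.1), with libraries 1 to 3 from left to right within a group. Fras1 and Lama5 stand above 4 CPM in every library, and Esrp1, Cldn6, St14, Krt5 and Grhl2 are at 0 CPM, marked by the dotted line, in at least 1 control.

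Genes of several roles behaved otherwise. Dsg2, a desmosomal cadherin, had 3.37, 3.01 and 0.946 CPM in the controls and 1.14, 1.21 and 1.81 CPM in the cKO-labelled libraries, and its log2 fold change was -0.81 (adjusted p 0.5675 by edgeR). Elf3 had 5.74, 3.36 and 1.71 CPM in the controls and 3.77, 2.99 and 3.12 CPM in the cKO-labelled libraries, a log2 fold change of -0.12. These were the 2 of the 21 filtered genes with a lower value in those libraries, and the values of both groups overlapped. Rab25 had 3.16 TPM in cKO-labelled library 1 against 0 to 0.197 TPM in the other 5, a value that rests on 5 counts.

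Markers of other cells moved in the same libraries. The summed level of 9 endothelial genes was 229, 232 and 225 TPM in the controls and 537, 323 and 289 TPM in the cKO-labelled libraries. In 8 of the 9 every cKO-labelled library was above every control, as in 8.76% of all genes tested. Of the 17 mesenchymal genes 14 had a lower value and 3 a higher one, where 50.7% of all genes tested were higher. Higher values were also found in 5 of 5 red blood cell, 6 of 6 macrophage, 1 of 6 glial and 0 of 4 neuronal genes tested. In 0 of these red blood cell and 0 of these macrophage genes was every cKO-labelled library above every control. The red blood cell sums were 10051, 16700 and 12212 TPM in the controls. They were 28700, 10112 and 14445 TPM in the cKO-labelled libraries, so the groups overlapped and library 1 was highest. Lama5 and Krt18 can also be expressed outside the ectoderm. The part of these cells in the differences was not tested. Among 8 genes of lens, pituitary and foregut epithelium, 6 were at 0 in all 6 maxillary libraries, including the lens genes Foxe3, Cryaa and Cryba1. Their summed level was 0 to 0.478 TPM in the controls and 0.270 to 0.597 TPM in the cKO-labelled libraries. Without cKO-labelled library 1, 35 of 37 listed genes had a higher mean in the cKO-labelled libraries, against 47.5% of all genes. Of the listed genes 12 were higher without overlap, against 11.47% of all genes. The endothelial sums of cKO-labelled libraries 2 and 3, 323 and 289 TPM, were also above every control sum.

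The control groups of the tissues were compared to describe how much RNA of the epithelial genes each held, with tissue, stage, floxed allele and lane confounded. Of 15752 genes tested 7965 were called (50.6%), 4274 of them lower in the maxillary process (27.1%), by edgeR at an FDR of 0.05. Of the 40 listed genes 39 were called, all lower in the maxillary process. The filter kept all 40 through the palatal shelf, where they were high, since only 6 would pass in the maxillary controls alone. The count of 39 and the median that follows are therefore not read against those of all genes. The median log2 difference was -7.25 for the 40 genes and -0.03 for all genes. From group totals, the palatal shelf level in CPM was higher by a median of 142-fold over the 40 genes, by more than 10-fold in 38 of them and by more than 100-fold in 25. The summed level was higher 80.0-fold in TPM and 36.3-fold in CPM.

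Among listed genes with a count in the maxillary controls, the largest ratios between the tissues were those of the keratins Krt17, Krt15, Krt14 and Krt5. From group totals Krt17 was 7102-fold higher in the palatal shelf, a value that rests on 1 count in the maxillary controls and has a counting interval from 1275 upward (95%). Krt15 was 5157-fold higher, also on 1 count, with an interval from 925 upward. Krt14 was 1173-fold higher (618 to 2565) and Krt5 was 1071-fold higher (492 to 2920). Of the maxillary control counts behind these ratios, 7 of 9 for Krt14 and 6 of 6 for Krt5 came from control library 1. For genes without a count in the maxillary controls the ratio is a lower bound, taken at 3 counts over the group: Shh was at least 405-fold, Krt6a at least 170-fold, Ovol2 at least 41-fold and Ovol1 at least 23-fold higher. For adhesion genes the ratio was 167 for Cdh1 (118 to 247), 67.8 for Epcam (53.0 to 88.1) and 15.5 for Cdh3 (13.6 to 17.7). Such intervals cover counting error only.

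The genes with the smallest differences were Fras1 and Elf3. Fras1 was 3.37-fold higher in the palatal shelf (3.22 to 3.54), and its log2 difference was -1.69 (SE 0.16). Elf3 was 1.72-fold higher (1.45 to 2.03), with 4.98, 2.83 and 1.68 TPM in the maxillary controls against 4.69 to 6.37 TPM in the wild-type palatal shelf. The ranges overlapped, and Elf3 was the exception that was not called, with a log2 difference of -0.62 (SE 0.41). In level, Fras1 and Elf3 were the 2 listed genes of highest mean TPM in the maxillary controls.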

How the data were processed

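PolyA RNA was sequenced on a NovaSeq6000, per the labels. The submitters' processing notes name STAR 2.7.0, Salmon 1.1.0, DESeq2 1.28.1 and build mm10, without their roles. The authors deposited estimated counts and TPM values per gene and library. Symbols and coordinates came from GENCODE M21 (GRCm38), which matched 53355 identifiers and left 37 unmatched. The 40 genes and the other lists were chosen with earlier results of these data known. Estimated counts were rounded and tested with edgeR 4.0.16 (R 4.3.3): TMM, edgeR's default filter on low counts, quasi-likelihood F-test with group as the only term, Benjamini-Hochberg adjustment over all genes tested, FDR 0.05, each comparison on its own 6 libraries. Fold changes, SE and adjusted p are given for genes whose groups did not overlap, and for others beside them. A count of genes whose groups did not overlap, without the filter, was added after seeing the data. Replicate numbers are not stated to pair samples. Deviations of same-numbered maxillary libraries correlated at 0.10, 0.12 and 0.26 (palatal shelf 0.55, 0.20 and -0.24). Libraries of unlike number reached 0.15 in the maxillary process and 0.49 in the palatal shelf, so a pairing by number is not shown. Alternatives were RLE and upper-quartile factors, other filters, DESeq2 1.42.0, limma 3.58.1 on log2(TPM + 1) and log2(TPM + 0.1), the replicate block and leaving out each library. The edgeR test was tried on simulated data. No genome sequence was used beyond the given promoter windows. Whether samples were separate litters is not stated, so p-values measure the spread between these samples.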

Additional observations from a re-analysis of the deposited data

How the results depend on the processing

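Among the listed genes there were 0 calls in both genotype comparisons under RLE and upper-quartile factors, both other filters, both limma fits, an FDR of 0.1 and every fit that left out 1 library. The palatal shelf fits tested all 40, and the maxillary fits tested 14 with the stricter filter, 38 with none and 21 to 24 otherwise. DESeq2 gave 5 called genes in the palatal shelf with 1 of the 40 genes, and 356 in the maxillary process with 4. The other counts of called genes in the maxillary process, against 12, were 143 with no filter on low counts, 40 with the replicate block (0 of the 40 genes), 36 at an FDR of 0.1 and 2 to 29 when 1 library was left out (2, 3, 4 and 6 without control library 2, control library 3, cKO-labelled library 2 or control library 1, and 29 without cKO-labelled library 1). The replicate block called 0 genes in the palatal shelf. The cause of these shifts was not tested. No result reversed its direction while called. Between tissues 38 to 40 of the listed genes were called, against 39: 38 with DESeq2, with the stricter filter and without control library 2, and 40 without control library 1. The 3 ratios of summed levels moved by less than their spread. Maxillary values rest on few counts, with 19 of the 40 genes under 10 counts in the controls.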

Other observations

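Another 41 epithelial genes were listed by name for comparison, also with earlier results of these data known. Their summed level was 624 to 810 TPM in the wild-type and 508 to 854 TPM in the PI3K palatal shelf, and 82.4 to 87.3 TPM in the maxillary controls against 96.0 to 187 TPM in the cKO-labelled libraries. Of the mean in the controls, Jup gave 34.5 TPM, Itga6 29.6 TPM and Sostdc1 8.56 TPM. PI3K library 3 had the lowest level of the 6 palatal shelf libraries in 32 of these 41 genes. In the comparison of tissues 37 were tested and 36 were called lower in the maxillary process by edgeR, with a median log2 difference of -5.23. Markers of glia had higher values in PI3K libraries in 7 of 7 genes, against 48% of all genes tested. Their summed levels were 36.3 to 40.6 TPM in the wild-type and 48.2 to 68.2 TPM in the PI3K libraries, highest in PI3K library 3. In 4 of the 7 every PI3K library was above every wild-type library, as in 3.12% of all genes tested. By edgeR 0 of them were called, and 3 were at an unadjusted p under 0.05, against 2.14% of all genes.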
